A study of Mus musculus with 3 samples.

Results

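The regions described here lie at gene promoters and were read mainly in chromatin of cells that had received an Ets-1 virus. They were chosen by read counts in the deposited table that compares the libraries. A region on chromosomes 1 to 19 or X was taken when its annotation placed it within 1 kb of a transcript start and when it held at least 5 reads with the Ets-1 virus, no more than 2 for the control virus and no more than 4 for the input. The limits were met by 1114 of 30665 promoter regions, or 3.63%, and these 1114 regions belonged to 1092 genes. The whole comparison table listed 543367 regions.

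The study precipitated chromatin of Min6 cells, a mouse insulinoma line that secretes insulin and is used as a model of the pancreatic β cell, with an antibody against Ets-1 (ChIP-seq). One group was infected for 24 h with an adenovirus that overexpresses Ets-1 (Ad-Ets-1), and another received the control adenovirus Ad-GFP, also for 24 h. The last group was an input of chromatin without precipitation, whose virus the labels do not state. All cells were of this 1 line and grown in 25 mM glucose, and each group held 1 library. The design therefore gives no replicate check, and no p-value is printed.

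Ets-1 belongs to the ETS family of transcription factors, which bind DNA through a shared domain that recognises a GGAA core. In mammals, ETS words with CCGGAA are common in the CpG-rich promoters of genes active in most tissues, close to the transcript start, where other family members such as GABPA and ELK factors also bind. Many such promoters face a second gene that starts in the opposite direction. In immune and endothelial cells Ets-1 itself is best known as a factor of lineage genes and acts with partners bound nearby.

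The sequence words that the results turn on are shown first. The 8 bases CCGGAAGT, a strong ETS word, were searched on both strands, and 52 of the 1114 regions held 60 copies. Each line gives 10 bases to either side of the word, 5′ to 3′ in the direction in which the word reads CCGGAAGT, with the word in capitals, from the mm10 genome. The sites are those of Kdm5a (chr6:120364387-120364394, minus strand), Rfc4 (chr16:23127770-23127777, minus), Akt1s1 (chr7:44850323-44850330, minus), Bms1 (chr6:118419519-118419526, plus), Ndufs1 (chr1:63176832-63176839, plus), Naxd (chr8:11497566-11497573, plus), Tm9sf3 (chr19:41264067-41264074, plus), Snrpe (chr1:133610267-133610274, minus), and the region between Jun and its antisense neighbour Junos (chr4:95052809-95052816, minus). Traf7 has sites on both strands (chr17:24527859-24527866, plus, and chr17:24527948-24527955, minus).
Kdm5a: caggacgctcCCGGAAGTtaacgtgctg
Rfc4: cacccgcgcgCCGGAAGTgacgttattg
Akt1s1: gggatcgggaCCGGAAGTcccgcccggg
Bms1: caggggaaagCCGGAAGTaagctctggg
Ndufs1: tgcagttccgCCGGAAGTagccgaggcc
Naxd: acctgggaacCCGGAAGTgcgctggacc
Tm9sf3: ccggcacacgCCGGAAGTcctcccgacg
Snrpe: ggtcttgcttCCGGAAGTcgctttccga
Junos: gctctgtcccCCGGAAGTgcgggggtgc
Traf7 plus: gatacaggagCCGGAAGTcccggggcag
Traf7 minus: acagaggtcgCCGGAAGTcgtagtttag

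The promoters of 4 genes are shown at greater length, as the 250 bases before the RefSeq start (GRCm38.p6), to set the word in its surroundings. Those of Tsc2 (chr17:24632628-24632877), Rfc4 (chr16:23127731-23127980), Vmp1 (chr11:86683837-86684086) and Rpl9 (chr5:65391432-65391681) are all on the minus strand. Capitals mark CCGGAAGT and the shorter CCGGAA on either strand (TTCCGG where it is on the other). Rpl9, whose region held more reads than those of the other 3 genes, has neither.
Tsc2: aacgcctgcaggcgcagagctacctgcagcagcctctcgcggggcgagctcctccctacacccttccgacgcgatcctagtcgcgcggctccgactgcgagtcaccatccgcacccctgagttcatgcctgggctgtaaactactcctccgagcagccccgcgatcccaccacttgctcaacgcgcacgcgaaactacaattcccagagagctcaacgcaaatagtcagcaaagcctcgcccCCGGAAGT
Rfc4: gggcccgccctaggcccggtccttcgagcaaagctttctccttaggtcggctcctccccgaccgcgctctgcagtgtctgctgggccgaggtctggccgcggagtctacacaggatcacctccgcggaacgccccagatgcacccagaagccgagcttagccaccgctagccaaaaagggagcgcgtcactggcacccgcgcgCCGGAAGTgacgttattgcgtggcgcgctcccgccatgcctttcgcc
Vmp1: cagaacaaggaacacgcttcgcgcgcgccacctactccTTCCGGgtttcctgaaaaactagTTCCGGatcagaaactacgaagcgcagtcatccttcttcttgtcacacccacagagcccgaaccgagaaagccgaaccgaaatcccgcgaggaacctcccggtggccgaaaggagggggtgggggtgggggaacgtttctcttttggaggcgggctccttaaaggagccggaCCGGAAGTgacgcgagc
Rpl9: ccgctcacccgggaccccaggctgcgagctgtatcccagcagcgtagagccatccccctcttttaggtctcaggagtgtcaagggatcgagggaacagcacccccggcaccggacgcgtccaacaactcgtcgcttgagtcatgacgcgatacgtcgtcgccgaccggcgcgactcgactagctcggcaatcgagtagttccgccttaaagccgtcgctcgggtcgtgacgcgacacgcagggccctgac

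The reads themselves were few. Library totals were 1938473 reads (Ets-1 virus), 1775757 (control virus) and 3937473 (input). The 1114 regions took 7491 reads of the Ets-1 virus library, 547 of the control virus library and 428 of the input, which is 0.386%, 0.0308% and 0.0109% of each. These sums describe the choice and test nothing, since the same reads chose the regions. A region's median was 6 reads with the Ets-1 virus (interquartile range 6 to 7, highest 25), and 0 in both of the other libraries. With the Ets-1 virus, 262 regions held exactly 5 reads, 486 held 6 and 107 held 10 or more. Of the 1114, 799 had no control virus read and 638 had neither a control virus read nor an input read. Just outside the limits lay 1515 promoter regions with 4 Ets-1 virus reads, 30 with 3 control virus reads, 75 with 4 control virus reads and 5 with 5 or more input reads. The input limit thus removed few regions, and many more regions lay 1 read under the limit on Ets-1 virus reads than exactly at it.

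**Figure D1:**
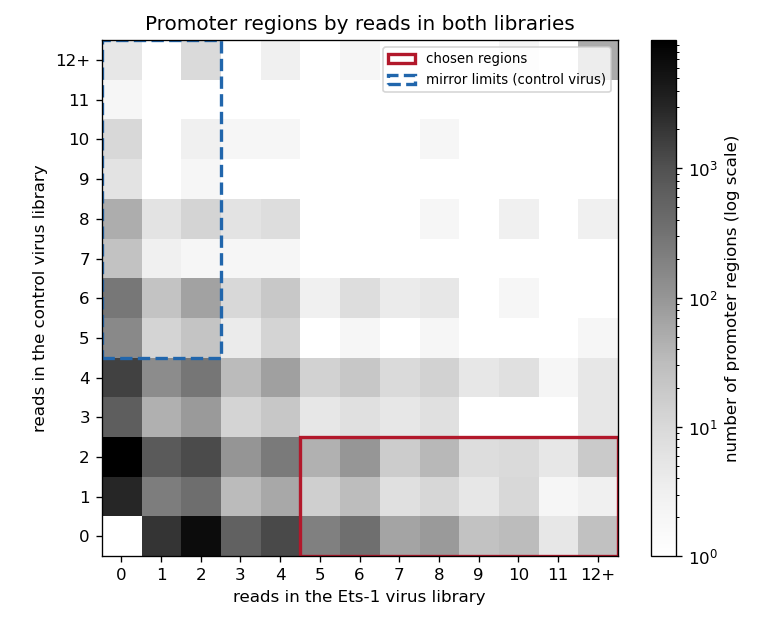
Promoter regions by reads in the Ets-1 virus library (x axis) and in the control virus library (y axis), both in reads, with the number of regions in shades of grey on a log scale. The solid box holds the chosen regions and the dashed box the mirror regions, both before the limit on input reads, which took out 5 of the regions in the solid box; of the 1114 chosen regions 262 sit at 5 and 486 at 6 Ets-1 virus reads, and 799 sit at 0 control virus reads.

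Scaled to library totals, the Ets-1 virus to control virus ratio had a median of 1.83 (interquartile range 1.83 to 2.75, highest 13.7). For the 799 regions without a control virus read it was computed against a floor of 3 reads. That floor is a chosen setting, so the ratio of these regions depends on it and is not a lower bound on the true ratio. A region with no control virus read can therefore rank below one with 2. The floor sets the median, which was 5.50 with a floor of 1 read. Counted in fragments of 2 reads, the 95% exact binomial interval of the ratio lay above 1 at 3 of the 315 regions that have an interval, which describes regions chosen on these same reads and tests nothing. Every interval given covers counting error alone, and PCR copies, which no molecular identifier marks here, are not separate molecules. At the other regions with an interval it spanned 1, so the excess that the rule asks for is within counting error there, and the 799 have no interval. In the authors' list of Ets-1 virus peaks, 1111 of the 1114 overlapped a peak by at least 1 bp, at a median deposited fold over local background of 2.78 (1.82 to 7.43). A −log10 q of at least 1.3 was reached at 318 of them, or 28.5%, and one of at least 2 at 53. In the authors' list of control virus peaks, 159 regions overlapped a peak and none one with a −log10 q of at least 1.3. The authors' deposited table called 955 of the regions with the Ets-1 virus only, 156 with both viruses and 3 with the control virus only. Peaks and calls come from the same libraries as the rule, so these counts describe the choice and test nothing. Shares over all promoter regions were not computed for them.

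The 15 regions with the most Ets-1 virus reads, predicted genes left out, lay at genes of varied function. At Rnu2-10, a gene of the U2 spliceosomal RNA, the region (mm10, chromosome 11, 101658102 to 101659347) had 25 Ets-1 virus reads, 2 control virus reads and 0 input reads, a ratio of 11.5 (95% interval 1.79 to 506). At Banf1, which encodes a DNA-bridging protein of the nuclear envelope and shares its promoter with Eif1ad, the region (chromosome 19, 5366432 to 5367218) had 20, 2 and 2 reads in the same order, a ratio of 9.16 (1.3 to 398). The non-coding gene AC154200.1 next to the start of Riok2, a kinase of ribosome assembly, had 17, 2 and 0 reads, a ratio of 7.79 (1.14 to 361), and the highest deposited −log10 q of all, 8.58. U2 RNA genes and the U3 gene Rnu3b2, with 15 Ets-1 virus reads, 1 control virus read and 4 input reads, belong to families of near-identical copies, so the gene their reads came from is uncertain.

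Among protein-coding genes, several of the next regions had no control virus read at all. Atp6v1f, a subunit of the vacuolar proton pump, held 16 Ets-1 virus reads, against 0 control virus and 0 input reads. Mrps28, a protein of the mitochondrial ribosome, held 16, against 0 control virus and 2 input reads. Rpl9, a protein of the cytosolic ribosome whose promoter is shared with the lipoic acid synthase gene Lias, held 14, against 0 and 0. The Mrps28 and Rpl9 regions spanned a start site, the Rpl9 region being centred 1 bp from it, and the Atp6v1f region began 20 bp past its start. Pde1a, a calmodulin-dependent phosphodiesterase, also held 14 Ets-1 virus reads, against 0 control virus and 0 input reads, and its region lay 163 bp upstream of the start. Ythdc2, an RNA helicase, had the same 14, 0 and 0 reads at a region 396 bp upstream, where GC was 35.5%.

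At 4 further regions there were 14 Ets-1 virus reads and 2 control virus reads, a ratio of 6.41 whose interval of 0.824 to 289 spans 1. They lay at Cdca7, a chromatin protein of dividing cells, Axin2, a feedback inhibitor of Wnt signalling, Gadd45a, a gene induced by DNA damage, and Kdm5a, a demethylase of histone H3 lysine 4. Their input reads were 0, 1, 1 and 3. All 4 regions spanned a start site, and GC in their central 200 bp was 68.5%, 75%, 70% and 60.5%. The remaining regions among the first 15 were the pseudogene Pisd-ps2, with 17 Ets-1 virus reads and none in the other libraries, and Ppid, a peptidyl-prolyl isomerase, with 13 and none in the others. Neither spanned a start: the Pisd-ps2 region, at 29.5% GC, lay 19 bp past its start, and the Ppid region lay 845 bp upstream of its own.

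What the regions share that the rule did not use is their base composition. To set it in context, 673 promoter regions were taken with the viruses exchanged in the rule (at least 5 control virus reads, at most 2 with the Ets-1 virus, at most 4 in the input). These mirror regions were 2.19% of the 30665. The remaining 28773 promoter regions outside both sets, and outside 105 with 5 or more reads in both libraries, serve as background. Median GC of the central 200 bp was 50.5% in the 1114 regions (interquartile range 41.5 to 64.5), against 43.5% in the mirror regions (36.5 to 51.5) and 44.5% in the background (38.0 to 51.0). A GC of 60% or more was reached by 32.9% of the regions, by 10.7% of the mirror regions and by 6.78% of the background. Among the 105 regions read in both libraries it was reached by 30.5% (21.9 to 40.2), so high GC was about as frequent there as in the 1114. The distribution of the 1114 had a second rise at 65 to 70% GC that the mirror regions and the background lacked, so the median describes a mixture of promoters near the genome's usual composition and GC-rich ones.

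CpG dinucleotides and start sites showed the same split. The observed to expected CpG ratio was 0.6 or more in 433 of the 1114 regions, or 38.9% (95% exact Clopper-Pearson interval 36.0 to 41.8), against 14.9% (12.3 to 17.8) of mirror regions and 8.93% of the background. An annotated start site lay inside 41.1% of the regions (38.2 to 44.1), against 25.9% of mirror regions (22.6 to 29.3) and 15.6% of the background. In the 105 regions read in both libraries both shares were 51.4% (41.5 to 61.3), higher than those of the 1114, with intervals that overlap theirs. Median width was 389 bp in the 1114, 462 bp in the mirror regions and 249 bp in the background. It was 608 bp in the 105 regions read in both libraries. Whether width bears on these shares was not tested. The deposited distance to the start had a median of 99 bp in the 1114 and 311 bp in the mirror regions. A protein-coding gene was nearest for 70.7% of the regions, 61.1% of the mirror regions and 56.2% of the background. Processed pseudogenes were nearest for 7.45%, 12.2% and 14.4%. In the 105 regions read in both libraries these shares were 72.4% (62.8 to 80.7) and 2.86% (0.593 to 8.12), so neither was particular to the 1114. The satellite repeat word that marks the most heavily read places of the genome was in none of the 1114 regions or of the mirror regions, and in 23 of the 105 regions read in both libraries.

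Promoters that serve a pair of coding genes in opposite directions made up 74 of the 1114, or 6.64% (5.25 to 8.27), against 12 of 673 mirror regions, or 1.78% (0.925 to 3.09), and 1.10% of the background. Besides Banf1 with Eif1ad and Rpl9 with Lias, they included Kdm5a with Ccdc77, and Taf6, a subunit of the general factor TFIID, with Cnpy4 at 12 Ets-1 virus reads, 2 control virus reads and 3 input reads. Mcm7, part of the replicative helicase, with Ap4m1 held 9, 0 and 0 reads. Ndufs1, a subunit of respiratory complex I, with the elongation factor gene Eef1b2 held 8, 0 and 1. Atp5j, an ATP synthase subunit, with Gabpa, itself a gene of the ETS family, held 5, 2 and 1. These pairs were picked after their values were seen, and the 74 also included pairs such as Uox with Dnase2b (8, 0 and 0) and Cdk2 with Pmel (7, 0 and 1).

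The read limits were also applied outside promoters. Over every class of annotation, 10284 of 542768 regions met the read limits of the rule, or 1.89%, and 10450 met those of the mirror, or 1.93%. The Ets-1 virus library had therefore no excess of such regions over the genome as a whole, and its excess was at promoters, where 3.63% met the rule against 2.19% for the mirror. Outside promoters, the median GC was 40% for the 8925 regions that met the read limits and 39% for the 9534 that met the mirror limits. Whether the precipitated libraries differ in how well they recover GC-rich DNA was not tested, and with 1 library per virus such a difference and the virus cannot be told apart.

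The ETS words differed among themselves. CCGGAAGT was in the central 200 bp of 30 of the 1114 regions, or 2.69% (1.82 to 3.82), against 1 of 673 mirror regions, or 0.149% (0.00376 to 0.825), and 107 of 28773 background regions, or 0.372% (0.305 to 0.449). The related CAGGAAGT went the other way, at 0.449% (0.146 to 1.04) of the regions, 1.34% (0.613 to 2.52) of mirror regions and 1.45% of the background. The core CCGGAA was in 11.8% of the regions (9.93 to 13.8), 3.27% of the mirror regions (2.06 to 4.91) and 3.26% of the background. The pattern with either base, C[AC]GGAAGT, was in 3.14% (2.20 to 4.34), 1.49% and 1.81%. The same letters written backwards, without complement, as TGAAGG[AC]C, were in 1.71%, 0.892% and 1.42%. Among the 105 regions read in both libraries, CCGGAAGT was in 0.952% (0.0241 to 5.19) and CAGGAAGT in 2.86% (0.593 to 8.12). CCGGAA was in 6.67% of them (2.72 to 13.3) and C[AC]GGAAGT in 3.81% (1.05 to 9.47). These intervals overlap those of the 1114, so the words were not shown to be particular to the chosen regions. The word with CC holds a CpG and the word with CA does not, and CpG content itself differed between the sets.

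The word was also counted within classes of like GC and position. Among windows with at least 50% GC that span a start site, CCGGAAGT was in 25 of 355 regions, or 7.04% (4.61 to 10.2), against 1 of 88 mirror regions, or 1.14% (0.0288 to 6.17), and 54 of 2194 background regions, or 2.46% (1.85 to 3.20). At 60% GC or more with a start site the shares were 6.09% (3.59 to 9.58), 2.13% (0.0539 to 11.3) and 3.66% (2.55 to 5.08), and all 3 intervals overlap. In windows of at least 50% GC without a start site, 5 of 216 regions held the word, or 2.31% (0.756 to 5.32), against 0 of 113 mirror regions and 22 of 6069 background regions, or 0.362%. None of the 543 regions under 50% GC held it, which allows a share of up to 0.677% (exact upper bound). The 30 windows with the word thus all lay in the GC-rich part of the set.

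Over all promoter regions, the start site and the word were counted by the reads of each library. The share of regions that span a start site was 13.9% at 0 Ets-1 virus reads, 16.3% at 1 or 2, 24.0% at 3 or 4, 38.1% at 5 or 6, 50.5% at 7 to 9 and 56.9% at 10 or more. By control virus reads it was 17.4%, 14.8%, 22.4%, 27.3%, 36.4% and 43.9% over the same steps. Start sites were thus more frequent at higher reads in both libraries. The share with CCGGAAGT was 0.261%, 0.346%, 0.903%, 2.83%, 3.45% and 1.52% by Ets-1 virus reads. By control virus reads it was 0.5%, 0.402%, 0.619%, 0.163%, 0.714% and 0%. At 5 or 6 reads the intervals, 1.80 to 4.21 and 0.00412 to 0.903, lay apart. The control virus intervals at 7 to 9 and 10 or more reads, 0.0181 to 3.92 and 0 to 3.69, overlap the Ets-1 virus ones. With the Ets-1 virus the share with the word was higher from 5 reads on than at 0 to 2 reads. At 10 or more reads it rested on 3 of 197 regions, with an interval of 0.315 to 4.39. Median GC at 5 or 6 and 7 to 9 Ets-1 virus reads was 49% and 55.5%. For control virus reads it was 44.5% and 46%. Regions with 5 or more Ets-1 virus reads include the 1114, and whether GC bears on the word's share was not tested. Within the 1114, 1 of the 107 regions with 10 or more reads held the word, or 0.935% (0.0237 to 5.10), so the most heavily read regions were not richer in it.

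**Figure D2:**
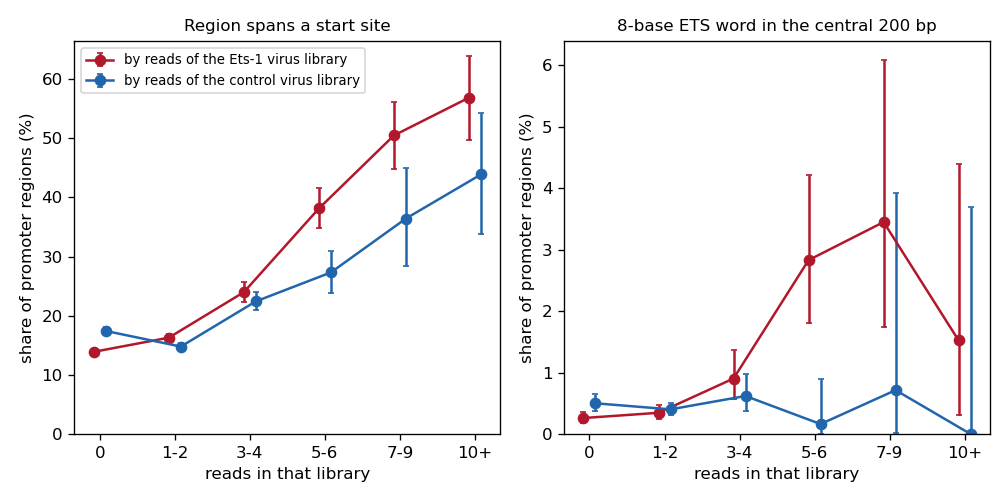
Share of all promoter regions (y axis, %) that span a start site (left) or hold the 8-base ETS word in the central 200 bp (right), by number of reads in the Ets-1 virus library or in the control virus library (x axis). Points are shares and bars 95% exact binomial intervals. Start sites are more frequent at higher reads in both libraries. The word reaches 2.83% and 3.45% at 5 to 9 Ets-1 virus reads, against 0.163% and 0.714% for control virus reads. From 7 reads on the intervals of the libraries overlap.

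The words that were present sat close to gene starts. Of the 60 copies in the 52 regions, 42 lay within 100 bp of the start site nearest the region's centre, at a median of 55.5 bp over all 60. Upstream of that start lay 45 of the 60, and 39 read in the direction of the gene. Counted over whole regions, 52 of 1114 held the word, or 4.67% (3.51 to 6.08). Of mirror regions 3 of 673 held it, or 0.446% (0.0920 to 1.3), and of background regions 156 of 28773, or 0.542%. Of the 105 regions read in both libraries 2 held it, or 1.90% (0.232 to 6.71), which overlaps the interval of the 1114. Median width was 389 bp in the 1114 and 249 bp in the background, and whether width bears on these shares was not tested. More than 1 copy lay in 5 regions: Pramef8 with 5, and Traf7, Gnl3l, Sec24c and D330023K18Rik with 2 each. Position relative to the start comes partly with the choice, since every region was taken for lying within 1 kb of one.

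**Figure D3:**
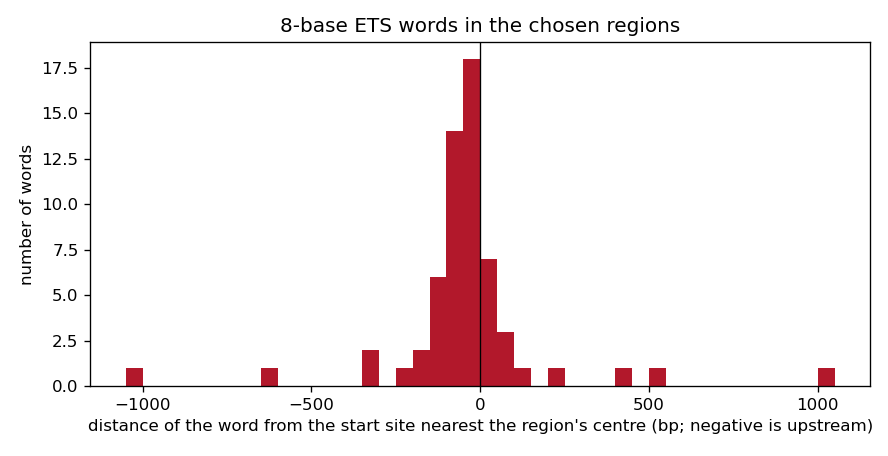
Number of copies of the 8-base ETS word in the chosen regions (y axis) by distance from the start site nearest the region's centre (x axis, bp, in steps of 50; negative is upstream). Of the 60 copies, 42 lie within 100 bp of that start and 45 lie upstream of it.

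The regions with the word belonged to genes of varied function and had modest read numbers. Kdm5a was the highest with 14 Ets-1 virus reads, 2 control virus reads and 3 input reads. Rfc4, a subunit of the clamp loader of DNA replication, had 12, against 0 and 0 in the other libraries. Akt1s1, the mTORC1 inhibitor PRAS40, held 9, 1 and 1 in the same order. The other named genes with the word were close to the limits of the rule. Bms1, a GTPase of ribosome assembly, had 9 Ets-1 virus reads, 2 control virus reads and 2 input reads. Vmp1, a membrane protein of autophagy that shares its promoter with Ptrh2, had 8, 0 and 0. Traf7, a ubiquitin ligase, had 8, 0 and 3. Naxd, which repairs damaged NADH, and Tm9sf3, a Golgi membrane protein, each had 8 Ets-1 virus reads and 2 control virus reads, with 0 and 4 input reads. Tsc2, an inhibitor of mTORC1 that shares its promoter with the DNA repair gene Nthl1, had 6, 0 and 0, and so did Snrpe, a core protein of spliceosomal particles. The Jun region had 5, 0 and 0.

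The word was also counted in promoters of fixed length. In the RefSeq table of promoters, 250 bases before to 50 after each start, 657 of the 1092 genes were matched by symbol. CCGGAAGT was in 54 of the 916 promoters of these genes, or 5.90% (4.46 to 7.62), against 32 of the 485 promoters of genes with a mirror region, or 6.60% (4.56 to 9.19), and 1277 of all 32851, or 3.89%. The intervals of the chosen and mirror genes overlap, and both lie above the share of all promoters. A gene can have several promoters whose bases overlap, while the intervals count each promoter as separate, so they are too narrow. No count by gene was made. For CAGGAAGT the shares were 1.53% (0.838 to 2.55), 4.54% (2.86 to 6.79) and 3.33%. For GGGCGG they were 55.7% (52.4 to 58.9), 46.6% (42.1 to 51.1) and 35.7%. For these words the intervals of the chosen and the mirror genes lay apart, with the same limit on their width. The regions also differed in whether they reached those 300 bases. Of the 675 regions whose gene was matched on their own chromosome, 300 overlapped its RefSeq promoter, or 44.4% (40.7 to 48.3), against 65 of 375 mirror regions, or 17.3% (13.6 to 21.6).

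Among words of other factors, GGGCGG, the core of GC boxes bound by Sp1, was in 26.1% of the 1114 regions, against 7.13% of mirror regions and 5.67% of the background. Where GC was at least 60% and a start site lay inside, it was in 67.0%, 59.6% and 56.6%. It was in 17 of 21 such regions read in both libraries, or 81.0% (58.1 to 94.6). AAGATGGC, a YY1 word, was in 2.96% (2.05 to 4.14) of the regions, 1.04% of the mirror regions and 1.55% of the background. TCTCGCGA, a word of CpG-rich promoters, was in 0.718% (0.311 to 1.41), 0.297% and 0.0417%. TATAAA was less frequent, at 9.43% (7.77 to 11.3) in the regions, 13.5% in mirror regions and 15.3% in the background. CCAAT differed little, at 23.9%, 26.9% and 25.3%. CACGTG also differed little, at 2.69% (1.82 to 3.82), 1.78% and 2.27%. TGACGTCA was in 0.718% (0.311 to 1.41), 0.149% and 0.226%, and GCGCATGC in 0.987% (0.494 to 1.76), 0.446% and 0.375%. Not every GC-rich word was thus more frequent. GGGCGG was more frequent and the AT-rich TATAAA less frequent, as were GC and AT themselves. A word in a window is a match of letters and was not tested for binding.

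The genes were next set against 32 lists, compiled with earlier results of these data known. Of 20345 genes with a listed promoter region, 5.37% had a chosen region and 3.25% a mirror region, and a list's share is read against these. Splicing and RNA processing had 13 of 80 genes with a chosen region, or 16.3% (8.95 to 26.2), and 5 with a mirror region. They included Hnrnpab, an RNA-binding protein of messenger RNA packaging, with 12 Ets-1 virus reads, 2 control virus reads and 2 input reads. Hnrnpc, a nuclear RNA-binding protein, had 9, 2 and 2. Translation factors and tRNA synthetases had 8 of 56 genes, or 14.3% (6.38 to 26.2), and 4 with a mirror region. The highest was Eif4g2, an initiation factor of cap-independent translation, with 11 Ets-1 virus reads, 2 control virus reads and 0 input reads. In both lists the lower end of the interval lay above the share of all genes. That share includes pseudogenes and non-coding genes. A protein-coding gene was nearest for 70.7% of the chosen regions and 56.9% of all promoter regions. The share among protein-coding genes alone was not computed.

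Other housekeeping lists had higher shares than all genes, with intervals that reach down to or below 5.37% in most. Mitochondrial ribosomal proteins had 5 of 30 genes, or 16.7% (5.64 to 34.7), cytosolic ribosomal proteins 4 of 31 (Rpl9, Rpl28, Rps21 and the ribosomal protein-like gene Rpl7l1) and oxidative phosphorylation 4 of 35. Mirror regions lay at 3, 1 and 0 genes of these lists. DNA replication and repair had 5 of 47 genes, against 1 with a mirror region, among them Rfc4 and Rad51c, a recombination factor, which held 12 Ets-1 virus reads, 2 control virus reads and 0 input reads. The proton pump had 2 of 13, proteasome and ubiquitin conjugation 5 of 48 with 4 mirror genes, membrane trafficking 10 of 104 with 9 and histone genes 3 of 29 with 2. General transcription machinery had 4 of 58 with 3 mirror genes, cell cycle genes 3 of 48 with 1, and chaperones 3 of 39 with 1. The chaperone list was built on gene names, and its members Hspg2, which encodes the matrix proteoglycan perlecan, and Hspb6, a small heat shock protein of muscle, are not general folding factors. Membrane trafficking and proteasome genes had nearly as many mirror genes as chosen ones.

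Receptor families of the nose were below the share of all genes, and other large families were near it. Olfactory receptors had 26 of 918 genes with a chosen region, or 2.83% (1.86 to 4.12), and 26 with a mirror region. Vomeronasal receptors had 10 of 297, or 3.37% (1.63 to 6.10), and 4 with a mirror region. Zinc finger genes had 12 of 226, or 5.31%, and 14 with a mirror region, and solute carriers 15 of 198, or 7.58% (4.30 to 12.2), and 11. Among the olfactory receptor genes, the region of Olfr364-ps1 held 12 Ets-1 virus reads, 0 control virus reads and 0 input reads at 50% GC, and that of Olfr921 held 10, 1 and 2 at 34.5% GC.

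**Figure D4:**
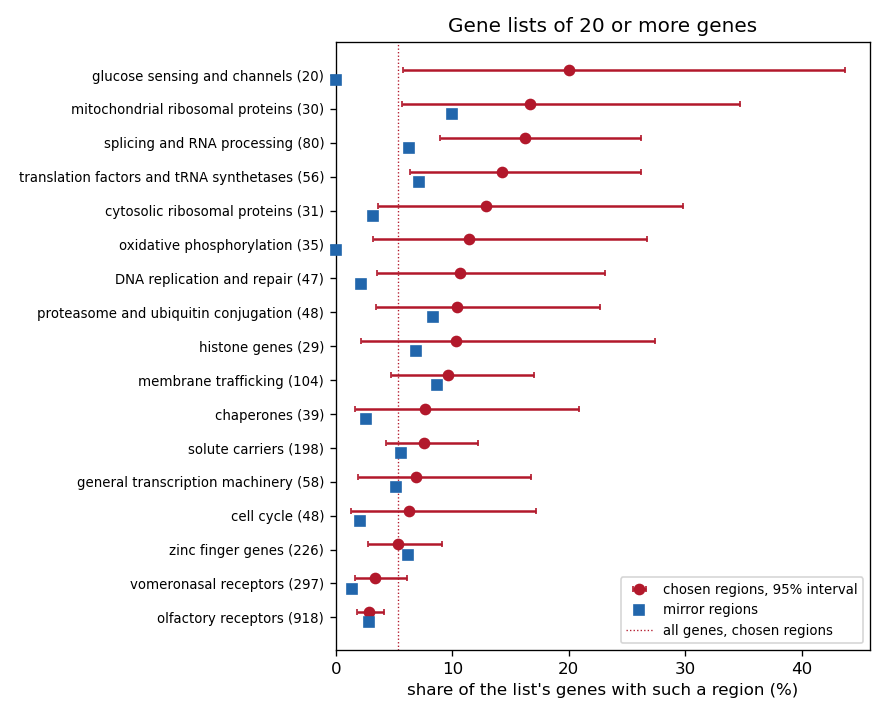
Share of each list's genes (x axis, %) that have a chosen region (circles, with 95% exact binomial intervals) or a mirror region (squares), for lists with 20 or more genes that have a promoter region (number in brackets); the dotted line is the 5.37% of all genes with a chosen region. Splicing genes reach 16.3%, and olfactory receptors stand at 2.83% for both kinds of region.

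Lists of β-cell function were short, and none of their genes had a mirror region. Since 3.25% of all genes had one, lists this short may hold none. Their shares with a chosen region are read against 5.37% of all genes, and the secretory granule list had 0 of 7. In the identity list 3 of 16 genes had a chosen region, or 18.8% (4.05 to 45.6). Rfx3, a factor of islet cell differentiation, held 13 Ets-1 virus reads, 2 control virus reads and 2 input reads across its start. Ins1, an insulin gene, held 10, against 0 control virus and 2 input reads, and Pax6, an islet regulator, 8, 0 and 0 at 777 bp upstream. Glucose sensing had 4 of 20 genes, or 20% (5.73 to 43.7). They were the glycolytic Eno1 (8 Ets-1 virus, 2 control virus and 0 input reads) and pyruvate carboxylase Pcx (6, 0 and 0). At the lower limit were the glucose transporter Slc2a1 and the glycolytic Tpi1 (5, 0 and 0 each). Insulin signalling had 4 of 17, or 23.5% (6.81 to 49.9). They were Tsc1 (8, 0 and 1), its partner Tsc2, the kinase subunit Pik3r1 and the insulin receptor Insr (6, 0 and 0 each for the last 3). The counts of 5 to 13 reads leave every one of these single regions within counting error of the control virus or without an interval.

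Stress and death pathways had a few members each, at shares whose intervals all reached below the 5.37% of all genes. The unfolded protein response had Xbp1, its central transcription factor, with 8 Ets-1 virus reads and none in the other libraries, and the disulphide isomerase Pdia6, with 5 and none, out of 11 genes. Antioxidant genes had Sod1 (7, 0 and 0) and catalase (Cat, 5, 0 and 0) of 13, and apoptosis genes the TNF receptor Tnfrsf1a (8, 0 and 0) and the BH3-only gene Bbc3 (7, 2 and 2) of 7. Of partners of ETS factors, Sp1 (5, 0 and 0) and Usf1 (2 regions, of 5, 0 and 0 and of 5, 0 and 1) were members, out of 7. Of 10 genes on the list of described Ets-1 targets, Cdkn1a, which encodes the cell cycle inhibitor p21, was a member, with 5 Ets-1 virus reads and none in the other libraries, and none had a mirror region. No gene on the lists of the ETS family (0 of 13), the secretory granule (0 of 7) or the interferon response (0 of 6) was nearest to a chosen region, which for 13 genes allows a share of up to 24.7%. Markers of other cell types were absent for acinar and duct cells (0 of 6), other islet hormones (0 of 4) and liver and muscle (0 of 9), and 1 of 9 for stroma, endothelium and immune cells (Col1a1, 5, 0 and 0). Reads of chromatin do not show whether a gene is expressed, so these lists describe where reads fell and do not check the cell line.

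The listed regions nearby were counted as well. Another listed region lay within 2 kb of 577 of the 1114, and these 869 neighbours held 1166 Ets-1 virus reads, 1352 control virus reads and 101 input reads. Neighbours held more Ets-1 virus than control virus reads at 215 of the 577 and fewer at 311. Around the mirror regions, neighbours of 404 of 673 held 785 Ets-1 virus reads and 1046 control virus reads, with more Ets-1 virus reads at 166 and fewer at 200. Control virus reads, not scaled to library totals, thus outnumbered Ets-1 virus reads in the neighbours of both sets. Listed regions in general went the same way. Over all promoter regions the median was 2 control virus reads and 0 Ets-1 virus reads. Nonzero counts numbered 344825 in the control virus library and 262669 in the Ets-1 virus library. The difference between the sets was not tested.

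Of the 1092 genes, 25 also had a mirror region elsewhere in their promoters. That is 2.29% of these genes, against 3.25% of all 20345 genes that had a mirror region. It is 3.78% of the 661 genes with a mirror region, against 5.37% of all genes that had a chosen one. The shares of even and odd counts bear on how reads were tallied. Even numbers were 72.0% of nonzero counts in the Ets-1 virus library, 74.5% in the control virus library and 19% in the input. Most counts in the precipitated libraries are thus even, and whether both mates of a pair were counted was not tested. The 411 regions with an odd Ets-1 virus count had a median GC of 55.5%, and the 703 with an even count one of 48.5%, both above the 44.5% and 43.0% of mirror regions with odd and even control virus counts.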

How the data were processed

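In 1 comparison table the authors deposited, per the file headers, the counts of reads in each region, RPM (count plus 1 per library total), a ratio of precipitated to input RPM, and the log2 ratio of the viruses. The authors' peak lists give, per the file headers, the caller's score, fold (a ratio), −log10 p and −log10 q for every peak. Only the counts and RPM values were analysed; the fold and −log10 q describe peaks, and the authors' call columns are only tallied and chose nothing. Tools named in the submitters' processing notes are MACS2 2.1.0, BWA 0.7.12, Trimmomatic and FastQC, with build mm10. Not given in the sources used here: peak-calling settings and the way reads were counted.

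Library totals were recovered from count plus 1 and RPM. The regions, comparison sets, words and gene lists were chosen with earlier results of these data known, so everything here is description. Transcript bounds were the same as in GENCODE M21 for 99.1% of 31481 shared transcripts. M21 also named the 319 chosen regions that the table leaves unnamed, gave start sites and gene types, and windows were read from GRCm38. Windows were 200 bp at the region's centre, and words were searched on both strands. The CpG ratio is observed CpG over that expected from C and G in the window. A pair of opposite coding starts had to lie within 1000 bp of the centre. Intervals of shares are Clopper-Pearson, at 95%. Ratios are reads scaled to totals, with exact conditional binomial intervals on fragments of 2 reads, rounded up; against 0 reads a floor of 3 was used and no interval given.

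Genes named are the 15 regions with the most Ets-1 virus reads (names starting Gm or ending Rik left out), up to 4 per list by reads, up to 15 with the ETS pattern in the window, and genes with several regions. Lists matched by name patterns may catch look-alikes. The region at Jun, Pramef8, Gnl3l, Sec24c, D330023K18Rik and the gene pairs outside these were named after their values were seen. Alternatives were other read limits, windows, words, distances, floors and peak thresholds. Word search was tested on simulated A and T sequence with planted words, and intervals of shares on simulated counts. Ratio intervals were tested on simulated counts higher than most here and without selection. Their coverage at the few, selected reads here was not tested, nor were false word matches. Software was bedtools 2.31.1 and, under Python 3.11.15, matplotlib 3.10.9, pysam 0.24.0, scipy 1.17.1, pandas 2.3.3 and numpy 2.4.6.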

Additional observations from a re-analysis of the deposited data

How the results depend on the processing

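With 1 library per virus no alternative can replace a replicate, and depth limits every single region. No paired analysis was possible because there is 1 library for each virus, and none could be left out for the same reason. The number of regions was 278 with at least 8 and 107 with at least 10 Ets-1 virus reads, at 106 genes, 16 of them on the lists; mirror regions were then 103 and 27. The 6 other limits tried left it within 1.5 times of 1114. Median GC was 57.5% at 10 or more reads (mirror 40%) and 49.0% without reads of the other virus (mirror 43.0%). C[AC]GGAAGT was in 6.28% of whole regions (mirror 4.31%), 12.3% of 1 kb windows (8.62%), 3.14% at summits (2.38%), 1.87% at 10 or more reads (0%), and, chosen after seeing the data, 5.78% at 50% GC or more (2.49%) and 6.33% with a start site inside (1.15%). Other words gave 2.69% for CCGGAAGT, 0.449% for CAGGAAGT, 11.8% for CCGGAA and 1.71% for the backward pattern. The distance to the start had a median of 303 bp from the centre and 0 bp at 10 or more reads. The median ratio was 1.37 in fragments and 5.50 with a floor of 1 read, both set by construction. Peaks with a −log10 q of at least 1.3 and 2 numbered 318 and 53.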

Other observations

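Genes with more than 1 chosen region numbered 21, and Junos, the antisense neighbour of Jun, had 3 with 6, 6 and 5 Ets-1 virus reads and none in the other libraries. At 3 of these genes, picked after their values were seen, 1 region spanned the start in GC-rich sequence and the other spanned no start and lay in AT-rich sequence. Senp6, a SUMO protease, had 13 Ets-1 virus reads, 2 control virus reads and 0 input reads at 75.5% GC across a start, and 6, 2 and 0 at 22.0% GC, 501 bp past another annotated start. Serbp1, an RNA-binding protein of ribosomes, had 10, 2 and 0 at 69.0% GC and 6, 0 and 0 at 33.5%. Ptp4a1, a phosphatase, had 10, 0 and 0 at 71.5% GC and 6, 0 and 0 at 36.0%.

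Small RNA genes were nearest to 61 of the 1114 regions, or 5.48% (4.21 to 6.98), against 7.43% of mirror regions and 7.30% of the background, and small nuclear RNA genes to 25, or 2.24% (1.46 to 3.30), against 2.53% and 1.93%. The share of a chromosome's promoter regions that were chosen was lowest on X, at 1.71%, and highest on chromosome 11, at 5.18%, against 3.63% over all.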
